A study of Mus musculus with 3 samples.

Results

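The genes described here are splicing factors and RNA helicases, taken as every gene whose name starts with Ddx, Dhx, Srsf, Hnrnp, Sf3, Prpf, Snrn, Snrp or Rbm and which has at least 1 called 5-methylcytosine (m5C) site in mRNA of mouse oocytes or 1-cell embryos. The rule found 121 genes with 541 distinct sites, of 8353 genes with 40298 distinct sites in the whole series. The annotation holds 172 protein-coding genes with these name starts, so 51 of them had no listed site. The members were grouped by name into 8 families, which held 31 DEAD-box helicase genes (Ddx, 133 sites), 13 DEAH-box helicase genes (Dhx, 87 sites), 6 serine/arginine-rich (SR) protein genes (Srsf, 28 sites), 16 heterogeneous nuclear ribonucleoprotein genes (hnRNP, 68 sites), 8 SF3 genes (38 sites), 9 PRPF genes (35 sites), 10 small nuclear ribonucleoprotein genes (snRNP, 36 sites) and 28 RNA-binding motif genes (RBM, 116 sites). A gene enters only through a called site, so the number of member genes is set by the rule and by how deeply each mRNA was read.

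The spliceosome is built on pre-mRNA from small nuclear ribonucleoproteins, which pair with the splice sites and the branch site. SF3 proteins belong to the U2 particle that holds the branch site, and PRPF proteins belong mostly to the U4/U6.U5 particle that joins later. DEAH-box and some DEAD-box helicases drive the rearrangements between these steps, while other DEAD-box proteins act in translation, mRNA storage or ribosome assembly. SR proteins and hnRNPs bind exons and introns and bias the choice of splice site, and RBM proteins are a mixed group defined by RNA-binding domains. Fully grown oocytes are transcriptionally quiet, so the mRNAs for these proteins were made earlier and are stored through meiosis into the fertilized egg. In mRNA, m5C is placed by NSUN2, at sites followed by G-rich sequence at the foot of a stem (Type I), and by NSUN6, at CUCCA-like sites in a loop (Type II).

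RNA bisulfite sequencing was carried out on wild-type C57BL/6J mice, with 1 library per stage and no replicate. Bisulfite converts C to U, and the m5C level is the share of reads that still carry C at a site. The germinal vesicle (GV) oocytes, still arrested before meiotic resumption, came from ovaries of females of 7 to 8 weeks that had been given 10 IU of pregnant mare serum gonadotrophin 48 h before. Matured oocytes arrested at metaphase II (MII) were taken from the oviduct of females of the same age. They were given the same hormone and dose and then, 44 to 48 h later, 5 IU of human chorionic gonadotrophin, with 12 h left until collection. The 1-cell embryos, a pool of about 200 by the series text, were flushed 24 h after the second hormone (5 IU) from females of the same age and strain, primed with 5 IU of the first and mated with males of the strain. These doses are those of the labels, and the study's methods differ from them for the second hormone and, in the 1-cell embryos, for the first. The ages are also those of the labels, and the study's methods give a wider range for the oocyte donors. The labels state that the zona pellucida was removed with hyaluronidase and that RNA was selected by its poly(A) tail, while the study's methods describe removal of ribosomal RNA.

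The GV, MII and 1-cell lists held 15910, 20694 and 24996 sites. Their coverage, summed over sites, was 4475058, 5285011 and 2616279, with a read counted at each site it covers. Each listed site had at least 20 reads, a level of at least 10% and at least 5 unconverted reads, so a site absent from a list may be unmethylated, below a minimum or not covered. A thinly covered site must have a higher level to reach 5 unconverted reads. Of 16 oocyte marker genes, 9, 12 and 14 had a listed site in the GV, MII and 1-cell lists, at a median coverage of 5063, 3738 and 684 reads. Of 14 granulosa and cumulus marker genes, the GV list held Nr5a2 alone, the MII list Amh and Cyp19a1, and the 1-cell list Nr5a2 alone, with a median coverage of 125, 72.5 and 71.0 reads. The description of the conversion step differs between the oocyte and embryo labels, and library and stage cannot be told apart.

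The sites on which the results turn are shown here as 21 RNA bases from GRCm38, with the listed C and the following 4 bases in capitals. The first set holds the Type II sites called at every stage, which share the letters CUCCA. All 6 lie in coding sequence (CDS). The window of Snrpc, at chr17:27840505 on the plus strand, crosses an exon junction and is shown as spliced.
Ddx3x, chrX:13289471-13289491, plus strand: gacacuaugcCUCCAaaaggu
Prpf8, chr11:75508292-75508312, plus strand: ggggugagccCUCCAgauaac
Rbm42, chr7:30645781-30645801, minus strand: gcccugaggcCUCCAcaccag
Snrnp27, chr6:86682867-86682887, minus strand: cgcucaagauCUCCAcaccga
Snrpc: acccacgauuCUCCAucugug
Srsf3, chr17:29038599-29038619, plus strand: aggaggagucCUCCAccucgg

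The second set holds the sites with the largest called rise or fall in a pair of libraries, among sites with at least 50 reads in both. Type I is taken here as every site that is not Type II, without a check of G or pairing. All 4 are Type I sites in CDS.
Rbm19, chr5:120132157-120132177, plus strand: gcguguggcuCUGGGggagac
Hnrnpul1, chr7:25745187-25745207, minus strand: ggcccgagacCGGAGuagugg
Rbmxl2, chr7:107210382-107210402, plus strand: cgguccugccCGAGGgccacc
Srsf1, chr11:88048648-88048668, plus strand: gguccgagaaCAGAGugguug

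The third set holds 6 of the 10 most deeply read sites that were called at every stage. The sites of Rbm38 lie in the 3′ UTR, and the others in CDS.
Rbm38, chr2:173033991-173034011, plus strand: cacuccgugcCAGGUgccuua
Rbm38, chr2:173034373-173034393, plus strand: ggcgaguucuCAGGUgucugu
Hnrnpu, chr1:178337467-178337487, minus strand: ggccucaaggCCGAUcucaug
Hnrnpul2, chr19:8820743-8820763, plus strand: gccggaggaaCGGAGcggaga
Hnrnpul2, chr19:8820748-8820768, plus strand: aggaacggagCGGAGacgaga
Prpf8, chr11:75493894-75493914, plus strand: ccacuacaacCGGGAacggau

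The letters from the site onward were counted over all members. CAGGA was the most frequent, at 31 of 541 member sites (5.73%, against 6.05% of all 40197 sites with a full window), followed by CGGAG at 29 sites (5.36% against 2.92%) and CAGGG at 26 (4.81% against 6.48%). CUCCA stood at 20 member sites (3.70% against 3.74%). CGGAG is the stretch found at the Hnrnpul1 site and at both neighbouring Hnrnpul2 sites above, and CGGAA was found at 12 member sites (2.22% against 0.911%). These are counts of letters in listed sites, without a test.

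The GV list held 210 member sites in 86 genes, the MII list 282 in 99 genes and the 1-cell list 359 in 95 genes. Their share of each list was 1.32%, 1.36% and 1.44%. The median level of member sites was 21.6%, 20.9% and 23.1%, beside 19.5%, 19.8% and 23.8% over all sites of each list. The median coverage was 163.5, 135 and 63 reads, beside 121, 107 and 58 reads over all sites. The 1-cell list thus held the most member sites at the lowest coverage. Among sites with at least 50 reads the median member level was 21.2%, 20.6% and 17.5%, so the higher 1-cell median depended on its thinly covered sites. A level of at least 50% was found at 28 member sites of the GV list (13.3%, 95% Wilson interval 9.39 to 18.6, covering counting error only), 31 of the MII list (11.0%, 7.85 to 15.2) and 68 of the 1-cell list (18.9%, 15.2 to 23.3). Over all sites of the lists these shares were 11.0%, 11.9% and 16.7%. Every read was unconverted at 13 member sites of the 1-cell embryo and at none in either oocyte list, and 11 of the 13 had 20 to 28 reads. The whole 1-cell list had 551 such sites of 24996, the MII list 8 and the GV list 2.

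Over all sites of a list, the family medians of level were most spread in the 1-cell list, but not at like coverage. In the GV oocyte the family medians ran from 15.9% (snRNP, 18 sites) to 24.3% (DEAD-box, 47 sites), and in the MII oocyte from 15.0% (hnRNP, 24 sites) to 23.6% (SF3, 12 sites). In the 1-cell embryo they ran from 19.0% (SF3, 32 sites) to 32.7% (DEAH-box, 46 sites), with snRNP at 32.0% and DEAD-box at 27.2%. Among 1-cell sites with at least 50 reads, the range narrowed to between 15.0% (SF3) and 20.5% (SR), and the DEAH-box and snRNP medians were 18.4% and 18%. The high DEAH-box median therefore went with low coverage, since 52.2% of its 1-cell sites had fewer than 50 reads, against 18.8% of the SF3 sites. The differences between families were not tested.

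**Figure D1:**
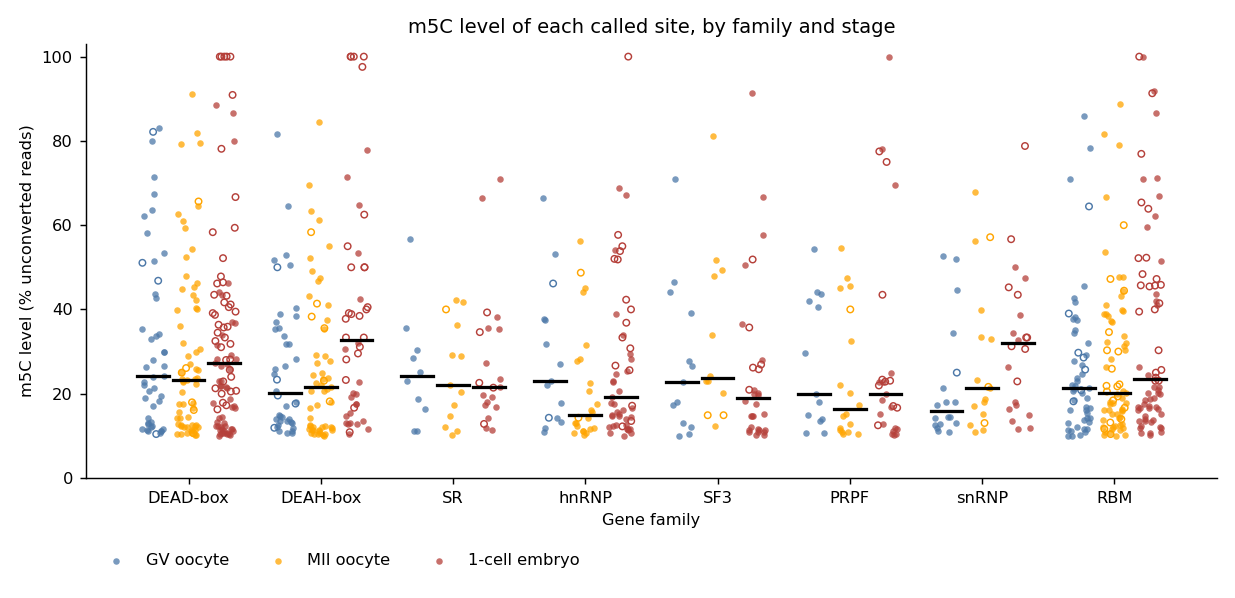
The m5C level of each called member site (vertical axis, % unconverted reads) by gene family, with the 3 stages side by side. Filled points have at least 50 reads, open points fewer, and black bars are medians. The sites at 100% are 1-cell sites, and 11 of those 13 have 20 to 28 reads.

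Member sites fell mainly into 4 patterns. Of the 541 sites, 102 in 55 genes were called in all 3 lists (18.9%, against 15.2% of all sites), 80 in both oocyte lists alone (14.8% against 16.9%), 78 in the MII list alone (14.4% against 14.6%) and 231 in the 1-cell list alone (42.7%, interval 38.6 to 46.9, against 41.3%). Another 24 sites were in the GV list alone, 22 in the MII and 1-cell lists and 4 in the GV and 1-cell lists. As a group the members were thus spread over the lists much as all sites were.

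The families departed from this in opposite directions. SF3 had 25 of 38 sites in the 1-cell list alone (65.8%, interval 49.9 to 78.8) and hnRNP 40 of 68 (58.8%, 47.0 to 69.7), whereas DEAH-box had 25 of 87 (28.7%, 20.3 to 39.0) and RBM 37 of 116 (31.9%, 24.1 to 40.8). DEAH-box instead had 23 of its 87 sites in both oocyte lists alone (26.4%), and hnRNP 4 of 68 (5.88%). The sites of a gene share its coverage and are not independent, so these intervals are too narrow for a comparison of families.

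**Figure D2:**
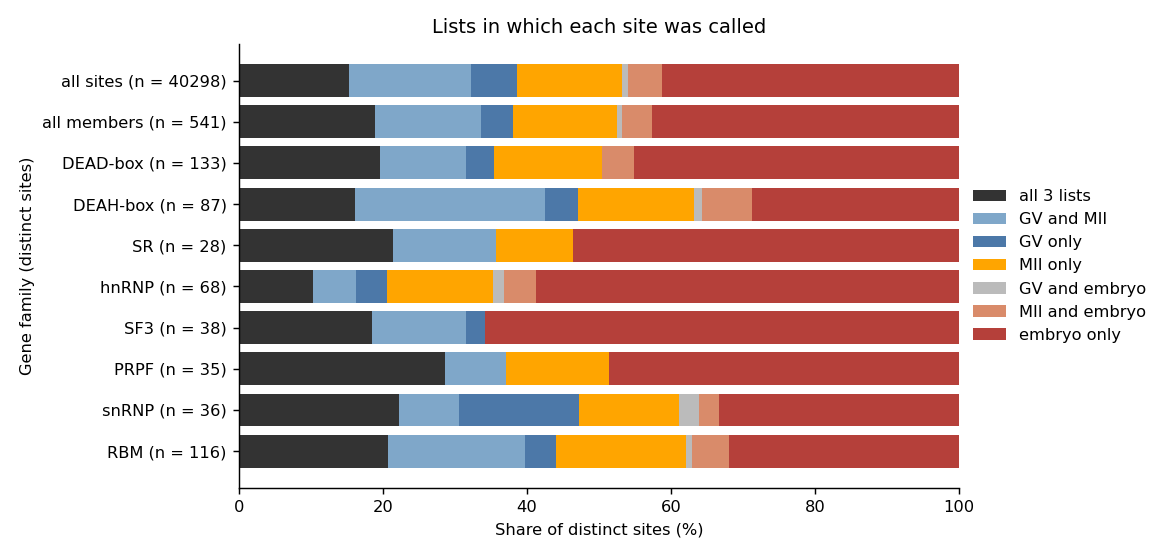
Share of distinct sites (horizontal axis, %) by the lists in which they were called, for all sites, all members and each family, with the number of distinct sites in brackets. The 1-cell list alone holds 65.8% of SF3 sites and 28.7% of DEAH-box sites.

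Of the 231 member sites in the 1-cell list alone, 193 (83.5%) lay in genes that also had a listed site in an oocyte, against 88.4% for all such sites. Their median level was 19.2% and their median coverage 63 reads. Hnrnpu, which encodes a nuclear scaffold protein, shows this pattern. It had 10 distinct sites, of which 1 in exon 1 was called at every stage, with 771 of 1451 GV reads unconverted (53.1%), 910 of 1619 MII reads (56.2%) and 49 of 73 embryo reads (67.1%). The other 9 were listed in the 1-cell embryo alone, with 26 to 95 reads and levels of 11.5% to 42.3%, and 7 of them lay in the same exon. Hnrnpul1, with as many distinct sites at lower coverage, had 10 in the 1-cell list, 2 in the GV list and 1 in the MII list.

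Sf3a1, a subunit of the SF3A part of the U2 particle, followed the same course. Its site in exon 15 was at 44.1% in GV oocytes (531 reads), 49.3% in MII oocytes (434 reads) and 66.7% after fertilization (63 reads). Its other 9 sites were in the 1-cell list alone, at 11.4% to 51.9%. The oocyte lists do not hold the reads at those 9 positions, so no level can be given for them there.

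In all, 65 member genes had a site in each list, 17 in both oocyte lists alone, 18 in the 1-cell list alone, 11 in the MII and 1-cell lists, 6 in the MII list alone, 3 in the GV list alone (Hnrnph1, Rbm4b and Snrpa) and 1, Snrnp25, in the GV and 1-cell lists. These counts were made for member genes only. Whether they differ from those over all genes of the series was not tested. The 18 genes of the 1-cell list alone were Ddx20, Ddx21, Ddx27, Ddx60, Dhx15, Hnrnpa1, Hnrnpa2b1, Hnrnpab, Hnrnpf, Hnrnpr, Rbm3, Rbm18, Rbm47, Sf3b1, Sf3b3, Sf3b4, Snrpn and Srsf5. Among them Snrpn, the imprinted gene for the SmN protein, had the most sites and was chosen for description after its values were seen. It had 6 sites with 45 to 96 reads and levels of 13.5% to 33.3%. Of these sites 4 lie in exons of other annotated genes on the same strand, 3 of them in Snurf, and reads of these transcripts cannot be told apart. Hnrnpa1 has many near-identical pseudogene copies, so its 2 sites, at 14.6% and 15.1%, are uncertain.

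Read coverage at member sites was lower in the 1-cell library, and unevenly so between families. At the 124 member sites called in both the MII and 1-cell lists, the median ratio of 1-cell to MII coverage was 0.264, beside 0.318 over all 8015 sites called in both. The ratio was 0.0987 for hnRNP (10 sites in 6 genes), 0.130 for PRPF (10 in 5), 0.145 for SF3 (7 in 4) and 0.214 for DEAD-box (32 in 13). It was 0.308 for SR (6 sites in 3 genes), 0.333 for RBM (30 in 12), 0.386 for snRNP (9 in 5) and 0.400 for DEAH-box (20 in 9). Sites of a gene share its coverage, so these medians rest on few genes, and the families were not tested against each other. The hnRNP, SF3 and PRPF families thus had the lowest ratios, and hnRNP and SF3 were those with the largest share of sites in the 1-cell list alone. Between the GV and MII oocytes the member ratio was 0.854, with family medians from 0.789 (snRNP) to 1.11 (hnRNP). Coverage at a called site follows both the amount of an mRNA and its conversion and capture, and in bulk RNA fewer cells and less RNA per cell cannot be told apart.

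**Figure D3:**
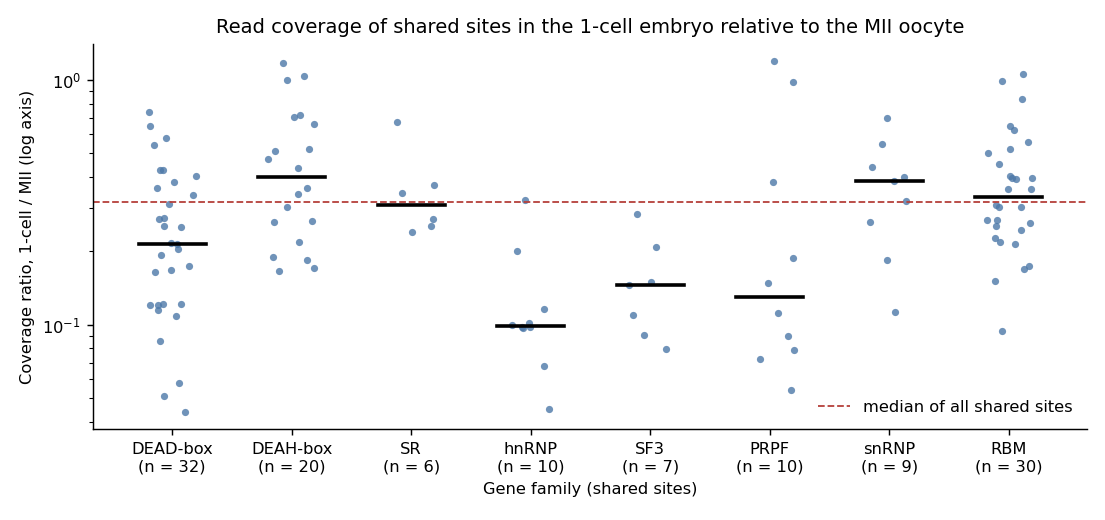
Ratio of read coverage in the 1-cell embryo to that in the MII oocyte (vertical log axis) at each member site called in both lists, by family. Black bars are family medians and the dashed line is the median of all shared sites, 0.318. The hnRNP median is 0.0987 and the DEAH-box median 0.400.

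The first comparison asked how levels in the MII oocyte differed from those in the GV oocyte at sites called in both. The lists shared 182 member sites in 79 genes, of which 147 had a higher level in the MII oocyte and 35 a lower level, with a median difference of 4.69 percentage points (4.87 over all 12954 shared sites). With a two-sided Fisher's exact test of unconverted against converted reads, adjusted over all shared sites by Benjamini-Hochberg, 35 member sites in 26 genes were higher (19.2%, against 19.6% of all shared sites) and 4 were lower (2.20% against 0.965%). The member share called higher thus lay near the background, while the share called lower rests on 4 sites and was above it. The test compares the reads of 2 libraries and not the stages. When all reads were divided by 5, to mimic reads that are copies of fewer molecules, 1 member site was called higher (0.549%, against 0.672% of all shared sites) and none lower (3 of all shared sites).

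By family the called rises were 11 of 42 DEAD-box sites, 5 of 37 DEAH-box sites, 1 of 10 SR sites, 2 of 11 hnRNP sites, 3 of 12 SF3 sites, 3 of 11 snRNP sites, 10 of 46 RBM sites and none of 13 PRPF sites. The single PRPF sites differed by -8.67 to 5.38 points, and the DEAD-box median was 7.00 points. Whether families differed was not tested.

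The largest called rise was in Rbm19, a protein of pre-rRNA processing, at 21 of 55 reads in the GV oocyte (38.2%, interval 26.5 to 51.4) and 38 of 57 in the MII oocyte (66.7%, 53.7 to 77.5). The intervals did not overlap, and the adjusted p of Fisher's exact test was 0.0258. This call was lost with Bonferroni adjustment and with reads divided by 5. The Rbm19 site lies over an exon of Gm10390 on the opposite strand. In Dhx16, the helicase that readies the spliceosome for the first step of splicing, a site in exon 7 rose from 35.6% (163 reads) to 61.2% (116 reads), with an adjusted p of 0.000467. Ddx42, a helicase that acts with the U2 particle, rose from 21.2% (193 reads) to 44.7% (190 reads), with an adjusted p of 3.29e-05. Ddx46, another helicase that acts with this particle, rose from 33.7% (510 reads) to 52.5% (451 reads), with an adjusted p of 1.86e-07. All 3 helicase sites then stood at 100% in the 1-cell embryo, at 22 or 23 reads each. Rbm22, a component of the active spliceosome, rose at a site in its 5′ UTR from 35.0% (117 reads) to 53.5% (142 reads), and this site stood at 45.8% (24 reads) in the 1-cell embryo.

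The 4 sites called lower in the MII oocyte were in Hnrnpul1, Ddx17, Srsf1 and Rbm15b. The Hnrnpul1 site in exon 5 fell from 159 of 239 reads (66.5%, interval 60.3 to 72.2) to 127 of 288 (44.1%, 38.5 to 49.9), with an adjusted p of 9.02e-06 by Fisher's exact test, and all of its 28 reads were unconverted in the 1-cell embryo. Srsf1, the gene of the SR protein SF2/ASF, had a 3′ UTR site that fell from 56.7% (397 reads) to 41.8% (239 reads). Ddx17, a helicase and transcription cofactor, had a 3′ UTR site that fell from 67.4% (89 reads) to 46.3% (67 reads). The site in the 3′ UTR of Rbm15b, a partner of the m6A methyltransferase, was below the 50 reads asked of named sites in 1 library and fell from 64.4% (45 reads) to 37.0% (54 reads). Apart from Hnrnpul1, these sites were 3′ UTR sites absent from the 1-cell list.

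**Figure D4:**
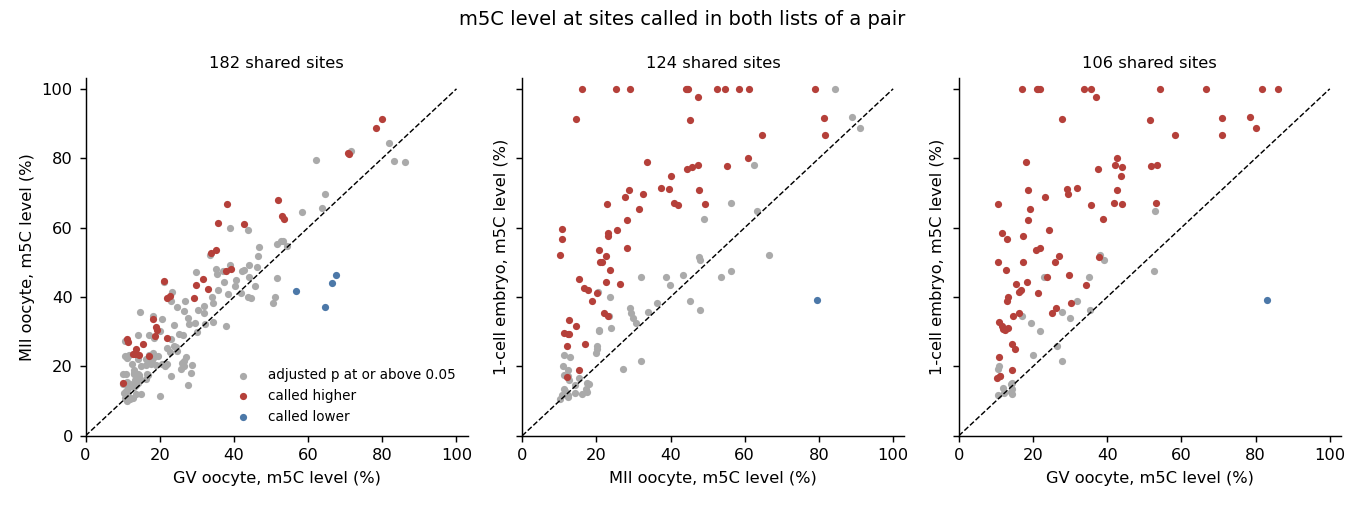
m5C level (%) at member sites called in both lists of a pair, with the earlier stage on the horizontal axis and the later one on the vertical axis. Red points were called higher at the later stage, blue points lower, and grey points did not pass the adjusted threshold. The dashed line marks equal levels, and most red points of the panels with the 1-cell embryo lie far above it.

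The second comparison set the 1-cell embryo against the MII oocyte. The lists shared 124 member sites in 57 genes, with a median difference of 14.8 percentage points (12.7 over all shared sites), and 107 were higher in the embryo. By the same Fisher's exact test, 66 in 44 genes were called higher (53.2%, against 51.3% of all shared sites) and 1 was called lower (0.806% against 2.45%). The rise was smaller at well-covered sites. Where both libraries had at least 50 reads the median difference was 9.41 points, and where both had at least 100 reads it was 5.62 points. At the latter coverage 45.7% of 46 member sites were called higher, against 56.6% of all. The minimum of 5 unconverted reads favours high levels at low coverage, and its part in the median difference was not tested beyond these coverage steps. With all reads divided by 5, 3 member sites were called higher (2.42%, against 7.20% of all shared sites).

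Each family had called rises in this pair. They were 7 of 9 snRNP sites, 11 of 20 DEAH-box sites, 16 of 32 DEAD-box sites, 16 of 30 RBM sites, 5 of 10 hnRNP sites, 5 of 10 PRPF sites, 3 of 6 SR sites and 3 of 7 SF3 sites. The family medians of the difference ran from 5.67 points (SF3) to 21.3 points (PRPF).

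Rbmxl2, an hnRNP G relative known from male germ cells, had the largest called rise with at least 50 reads, from 12 of 113 reads in the MII oocyte (10.6%, interval 6.18 to 17.6) to 34 of 57 in the 1-cell embryo (59.6%, 46.7 to 71.4). The adjusted p of Fisher's exact test was 4.11e-10, and this site was not in the GV list. Rbmxl2 resembles Rbmxl1 and Rbmx in sequence, so its reads may be shared with them. The Srsf1 site in exon 2 stood at 18.7%, 28.9% and 71.0% (299, 343 and 93 reads), and the rise was called at both steps. In Srsf1 the coding site thus rose from GV to MII while the 3′ UTR site fell.

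In Hnrnpul2 the neighbouring sites of the CGGAGCGGAG stretch in exon 1 moved together. The upstream C stood at 23.1%, 27.8% and 68.8% (1025, 1142 and 112 reads) and the C located 5 bases downstream at 22.0%, 28.2% and 54.1% (1005, 1115 and 109 reads). Both rose from MII to the 1-cell embryo, with adjusted p of 8.44e-16 and 5.71e-07 by Fisher's exact test. These sites are covered by mostly the same reads. The third deeply read site of this gene, in exon 8, rose from 31.8% to 45.2% between the oocytes (1265 and 1255 reads) and stood at 38.8% in the 1-cell embryo (85 reads), where the difference from the MII oocyte did not pass the test. The measured levels at these sites of Hnrnpul2 thus did not all move in the same direction. Whether the changes differ between the sites was not tested. In Prpf6, which bridges the particles of the tri-snRNP, a site in exon 12 stood at 29.5%, 32.4% and 69.6% (528, 299 and 56 reads).

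Ddx49 held the single member site called lower in the 1-cell embryo. It was among the highest in the oocytes, with 262 of 315 GV reads (83.2%) and 169 of 213 MII reads (79.3%) unconverted, and had 9 of 23 in the 1-cell embryo (39.1%, interval 22.2 to 59.2). The call rests on 23 embryo reads and was lost when at least 50 reads were asked for. The site lies in the last exon of Ddx49, over an exon of Homer3 on the opposite strand.

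The third comparison set the 1-cell embryo against the GV oocyte, and it shares its libraries with the others. Of 106 shared member sites in 55 genes, 78 in 47 genes were called higher (73.6%, against 66.1% of all shared sites) and 1, the Ddx49 site, was called lower (0.943% against 1.05%). The median difference was 21.2 points, beside 19.2 over all 6478 shared sites, and 13.5 points where both libraries had at least 100 reads. Among the largest called rises with at least 50 reads were those in Srsf1 (18.7% to 71.0%, adjusted p of 5.68e-19 by Fisher's exact test), Hnrnpul2 (23.1% to 68.8%), Rbmxl2 at a neighbouring site (18.5% to 62.1%) and Rbm15b (29.1% to 71.2%). All 6 shared SR sites, in 3 genes, were called higher, as were 3 of 7 SF3 sites. With all reads divided by 5, 23 member sites were called higher (21.7%, against 21% of all shared sites).

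At the 102 member sites called in all 3 lists, the median level at the successive stages was 24.0%, 29.6% and 50.3%, and the median coverage 343, 283.5 and 61 reads. The level was higher at each step at 72 sites (70.6%, against 67.4% of all 6145 such sites) and lower at each step at 1, the Ddx49 site. It was higher at each step at 6 of 6 SR sites, 20 of 26 DEAD-box sites and 3 of 7 hnRNP sites. The DEAH-box median went from 28.9% and 33.3% to 63.6%, at 119, 113 and 46.5 reads, and the SR median from 21.9% and 29.0% to 36.9%, at 535.5, 631.5 and 222 reads. These steps are directions of the measured levels, and only part of them passed the test.

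**Figure D5:**
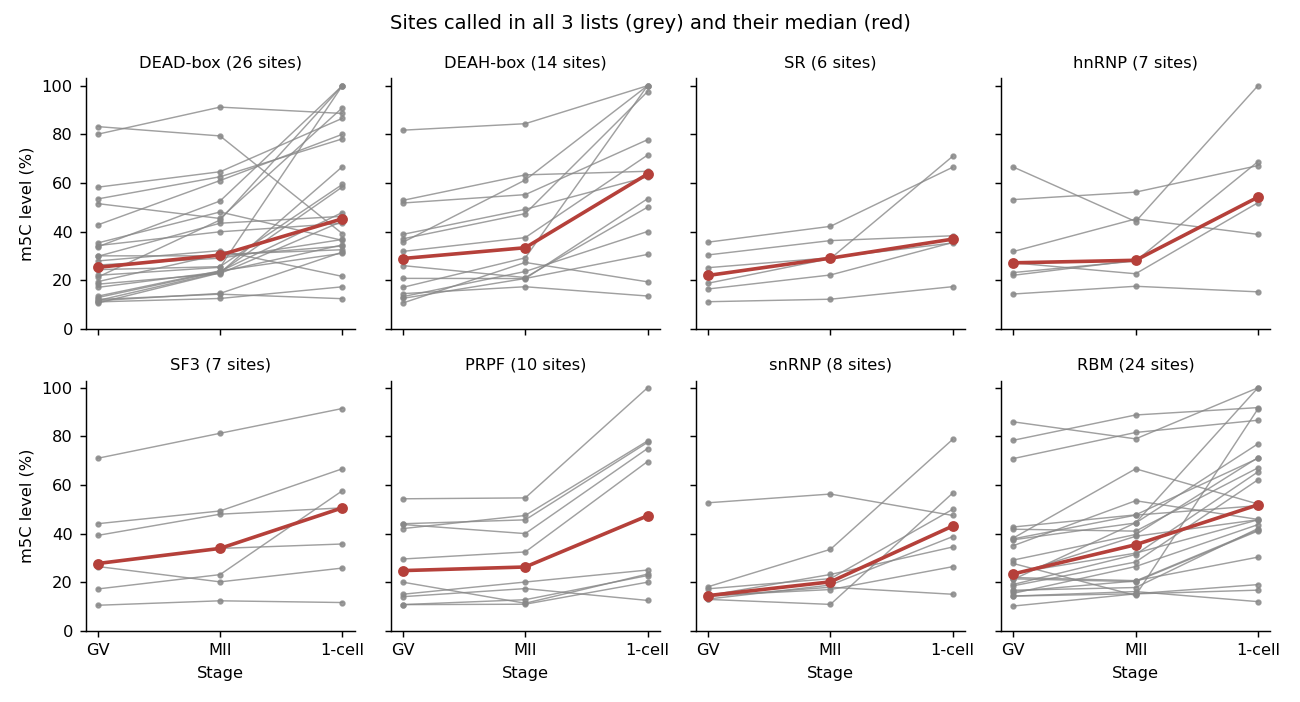
m5C level (%, vertical axis) by stage at the 102 member sites called in all 3 lists, 1 panel per family. Grey lines are single sites and red lines medians. The red line rises at each step in every family, by more in the step to the 1-cell embryo, and some single grey lines fall.

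The core genes of the spliceosome carried few to moderate numbers of sites. Prpf8, the protein at the catalytic centre, had 12 sites, all in CDS, of which 6 were in each oocyte list and 11 in the 1-cell list. In exon 34 its level was 42.1%, 47.4% and 78.1% (958, 862 and 96 reads), and the last step was called by Fisher's exact test with an adjusted p of 4.90e-08. In exon 15 its 2 sites stood lower, at 10.8%, 10.9% and 20.0% and at 14.0%, 17.4% and 12.5%, with 823 to 1059 oocyte reads, and neither differed past the threshold in any pair. Sites of this mRNA thus stood at low and at high levels side by side.

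Snrnp200, the helicase that unwinds U4 from U6, had 8 sites, with 5, 6 and 1 in the lists. Its site in exon 31 stood at 12.9% and 10.9% in GV and MII oocytes (364 and 267 reads) and at 56.7% in the 1-cell embryo (30 reads). This was the only Snrnp200 site in the 1-cell list. Its Type II site in exon 17 was at 34.4% and 32.9% in the oocytes (308 and 243 reads).

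Snrnp70, the 70K protein of the U1 particle, had a CDS site in exon 9 that rose from 310 of 596 reads (52.0%) to 282 of 415 (68.0%), with an adjusted p of 1.11e-05 by Fisher's exact test. This site was not in the 1-cell list. Prpf3 and Prpf31, both of the U4/U6 particle, had 2 sites each. Those of Prpf3 were at 40.6% and 45.0% and at 17.9% and 22.0% in the oocytes, while the shared site of Prpf31 was at 20.0%, 11.3% and 23.3% (195, 203 and 30 reads), and none of these differences passed the test. Sf3b1, which clamps the branch site, had 1 site, in the 1-cell list alone, at 50 of 413 reads (12.1%, interval 9.30 to 15.6). Snrpb, of the Sm ring, had no listed site, and of the other Sm ring genes Snrpd1, Snrpd2, Snrpd3, Snrpe, Snrpf and Snrpg also had none.

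The gene with the most sites in each family was found by count, with ties settled by summed coverage. Ddx51, a helicase of large ribosomal subunit assembly, had 17 sites, 15 of them in the 1-cell list and 4 and 6 in the GV and MII lists. Its site in exon 1 stood at 42.7%, 61.0% and 80.0% (110, 123 and 50 reads), and each step was called. Rbm15b also had 17 sites, all in its single exon, with 6, 10 and 9 in the lists. The called Rbm15b site above stood at 29.1%, 39.6% and 71.2% (316, 265 and 80 reads). Dhx57 had 12 sites, as many as Dhx32 at lower coverage, with a site in exon 18 at 20.7%, 20.6% and 53.5% (333, 281 and 144 reads), of which the second step was called by Fisher's exact test with an adjusted p of 2.22e-10. Srsf4, an SR protein, had 10 sites, none of them in the GV list, 3 in the MII list and 7 in the 1-cell list, and no site was shared between these lists.

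The highest levels among sites with at least 100 reads were found in the same few genes. Rbm28, a nucleolar protein of ribosome assembly, led the GV list at 86.0% (207 reads), and stood at 79.0% (176 reads) and 100% (53 reads) later. Rbm17, which bears on the choice of the 3′ splice site, stood at 78.4%, 88.8% and 91.8% (315, 286 and 282 reads). Ddx24 stood at 80.0%, 91.2% and 88.6% (421, 352 and 228 reads). Sf3a3, a partner of Sf3a1, stood at 71.0%, 81.3% and 91.5% (531, 454 and 129 reads). These 4 sites were in CDS, and in Rbm17, Ddx24 and Sf3a3 the rise from GV to MII was called. Rbm17 and Sf3a3 had no other oocyte site, and each had 4 further sites in the 1-cell list. Ddx28, of mitochondrial ribosome assembly, stood at 58.2%, 64.6% and 86.6% (376, 274 and 149 reads).

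Rbm38, a regulator of mRNA stability, held the most deeply read member sites. Its 3′ UTR site at chr2:173034001 stood at 14.3%, 15.3% and 19.0% (4117, 3960 and 963 reads), and its 3′ UTR site at chr2:173034383 at 70.9%, 81.6% and 86.6% (2311, 2377 and 539 reads). The former showed no called difference between the oocytes and rose by 3.75 points to the 1-cell embryo, with an adjusted p of 0.0117 by Fisher's exact test. The latter rose by 10.7 and then 5.03 points. At this depth the steps to the 1-cell embryo were below the median of 14.8 points over shared member sites. The rise of 10.7 points between the oocytes was above the member median of 4.69 points for that pair. The second site also lies in an exon of Gm14453 on the opposite strand.

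Type II sites, taken as CUCNA with the listed C first, numbered 24 of 541 member sites (4.44%, interval 3.00 to 6.52), against 4.15% of all sites. They numbered 0 of 68 in hnRNP and 0 of 38 in SF3, which allows shares of up to 5.35% and 9.18% (upper Wilson limits), and 4 of 28 in SR and 4 of 36 in snRNP. Of the 6 called at every stage, shown at the start, Ddx3x had the most reads and stood at 30.0%, 30.0% and 34.0% (1644, 997 and 338 reads). Ddx3x is a helicase of translation initiation and has a Y-linked copy, Ddx3y, of similar sequence. None of its differences passed the test.

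Among the other Type II sites, those of Rbm42 (14.3%, 16.1% and 12.0%) and of Snrpc, the U1-C protein (14.1%, 17.9% and 15.0%), also gave no call. The Rbm42 site also lies in an exon of Gm21982 on the same strand, and reads of these transcripts cannot be told apart. The Prpf8 site in exon 39 stood at 44.1%, 45.7% and 77.5% (681, 552 and 40 reads), the Srsf3 site at 16.4%, 22.1% and 35.5% (532, 615 and 155 reads) and the Snrnp27 site, of the tri-snRNP, at 14.4%, 17.0% and 26.4% (609, 695 and 379 reads). In these 3 the step to the 1-cell embryo was called by Fisher's exact test, with adjusted p of 0.000387, 0.00232 and 0.00104. Type II sites thus included some with a called rise and some without, in either case without a call between the oocytes.

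Member sites lay in CDS at 416 of 541 positions (76.9%, interval 73.2 to 80.2), against 70.1% of all sites, in the 5′ UTR at 64 (11.8% against 10.8%) and in the 3′ UTR at 60 (11.1%, 8.71 to 14.0, against 17.0%). The CDS share was 88.5% in DEAH-box, 85.7% in PRPF and 82.0% in DEAD-box genes. It was 64.7% in hnRNP and 64.3% in SR genes, where 27.9% and 21.4% of sites lay in the 5′ UTR. Exon 1 held 63.2% of hnRNP sites and 27.4% of all member sites, against 19.5% over the series. All 9 sites of Hnrnpdl, a regulator that binds AU-rich RNA, lay in its 5′ UTR.

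Where codons could be assigned, 74 of 411 member sites lay in arginine codons (18%, against 14.0% of all), with 157, 112 and 142 at codon positions 1, 2 and 3. The share was 30.0% in PRPF and 7.79% in DEAH-box genes. Type I member sites, taken as all those other than CUCNA, numbered 517. They had a mean of 2.12 G (SD 0.880) among the next 4 bases, against 2.07 over all Type I sites. The mean was 2.19 at sites of all 3 lists and 2.05 at those of the 1-cell list alone, and over the whole series 2.25 and 1.86. In folded windows of 101 bases, the 4 bases after the site were all paired at 38.2% of the member sites in all 3 lists and at 26.2% of those in the 1-cell list alone, beside 39.6% and 30.0% over all sites. The sites listed in the 1-cell embryo alone thus had fewer G and less predicted pairing downstream, among members and in the whole series, and neither difference was tested.

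Neighbouring sites were as common as elsewhere, with 56 of 541 member sites within 10 bases of another called site of the gene on the same transcript (10.4%, against 10.0%). The share was 19.5% in DEAH-box genes. In 12 member sites of 5 genes another gene's exon overlapped on the same strand, and in 26 sites of 13 genes on the opposite strand. The libraries were built with a directional kit.

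The background of unconverted C in each gene, recovered from the listed p-values, had a median of 0.304%, 0.472% and 0.355% over members in the GV, MII and 1-cell lists, beside 0.264%, 0.367% and 0.354% over all genes. In the MII oocyte it was 1.35% over 9 hnRNP genes and 0.900% over 5 SR genes, with Hnrnpd the highest at 3.22%. In the 1-cell embryo, where hnRNP genes had 51 sites against 24 in the MII oocyte, the median background was 0.345% over 12 hnRNP genes. These are partly other genes than in the MII oocyte, so the medians are not of like sets. Of the hnRNP genes with a value in both, Hnrnpd, Hnrnpl and Hnrnpdl were lower in the 1-cell embryo. Hnrnpa0, Hnrnpul1 and Hnrnpul2 were higher there. The part of this background in the levels was not tested, and each listed site exceeded its own gene's background by the authors' binomial test.

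A list of 75 other splicing and helicase genes, such as Eftud2, Srrm2 and Eif4a3, was compared in the same way. It had 107, 151 and 175 sites in 46, 52 and 48 genes over the 3 lists. Of its shared sites 17 of 96 were called higher and 0 lower from GV to MII, 36 of 59 higher and 2 lower from MII to the 1-cell embryo, and 35 of 47 higher and 0 lower from GV to the 1-cell embryo. Over all shared sites of these pairs, 19.6%, 51.3% and 66.1% were called higher and 0.965%, 2.45% and 1.05% lower. Its median differences were 3.57, 15.8 and 20.6 points, beside 4.69, 14.8 and 21.2 points for the members. Over all shared sites they were 4.87, 12.7 and 19.2 points.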

How the data were processed

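RNA bisulfite sequencing gave 1 list of called m5C sites per stage. Per the study's methods, the authors trimmed reads with cutadapt and Trimmomatic, aligned them to the converted GRCm38 genome with HISAT2 and the remainder to converted transcripts with Bowtie2, and filtered sites on base quality, coverage, level and unconverted reads. Coverage, as deposited, is an unnormalized read count per site (C plus T). The m5C level was deposited as a fraction, printed here in percent. The deposited p-value is one-sided and binomial, taken by the authors against the conversion rate of the gene, which was recovered from it. The 1-cell list differs from the supplement of the study at most sites compared, and the oocyte lists did not differ where compared.

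From these files, unconverted reads were computed as level times coverage. Sites were placed on GENCODE M21 transcripts of their own gene (CDS before 5′ UTR before 3′ UTR), windows were read from GRCm38, and windows of 101 bases were folded with ViennaRNA 2.7.2 at 37 °C. Sites called in both lists of a pair were compared by Fisher's exact test, two-sided, with Benjamini-Hochberg adjustment over all shared sites and a threshold of 0.05 (SciPy 1.17.1), after a check on simulated reads. Intervals are 95% Wilson intervals, cover counting error only and assume independent reads; no molecular identifiers were used. Coverage summed over the called sites of a library was 2616279 to 5285011, with a read counted at each site it covers. Named sites were, per family, those of the gene with most distinct sites; per pair, the 5 largest called rises and 5 falls with at least 50 reads in both; the 10 deepest called at every stage; per stage, the 5 highest with at least 100 reads; Type II sites called at every stage; and 8 core spliceosome genes. The members and lists were chosen with earlier results of these data known. Alternatives were minimums of coverage or level, membership by annotation symbol, other transcript or motif rules, reads divided by 5, Bonferroni adjustment and 1 value per gene. One named site is not reported here.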

Additional observations from a re-analysis of the deposited data

How the results depend on the processing

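No paired analysis was possible because each stage has 1 library and the labels carry no replicate numbers. Member sites numbered 115, 151 and 217 in the GV, MII and 1-cell lists at a level of at least 20%, with medians of 35.0%, 36.3% and 38.5%; at least 100 reads left 178 in the MII list and 106 in 37 genes in the 1-cell list, and at least 50 reads left 225 in the latter, where the median was 17.5% at 50 reads and 16.8% at 100. The CDS share at 100 reads was 85.3%, 80.3% and 85.8%. Calls from GV to MII came to 1 higher and 0 lower with reads divided by 5 and 6 and 1 with Bonferroni adjustment, and 2 were lower at 100 reads. From MII to the 1-cell embryo 38 were higher at 50 reads, 21 at 100, 3 with divided reads and 28 with Bonferroni adjustment, and 0 were lower in each of these; from GV to the 1-cell embryo 47, 28, 23 and 37 were higher and 0 lower. The median difference to the 1-cell embryo was 9.41 and 5.62 points from MII and 16.1 and 13.5 from GV at 50 and 100 reads. The shares called higher, in the order 50 reads, 100 reads, divided reads and Bonferroni, were 24.7%, 33.1%, 0.549% and 3.30% of members from GV to MII (24.5%, 32.8%, 0.672% and 4.64% of all shared sites), 50.7%, 45.7%, 2.42% and 22.6% from MII to the 1-cell embryo (52.5%, 56.6%, 7.20% and 21.8%) and 75.8%, 82.4%, 21.7% and 34.9% from GV to the 1-cell embryo (69.3%, 75.5%, 21% and 35.9%). Of all shared sites, 1.01%, 1.05%, 0.0232% and 0.232% were called lower from GV to MII, in the same order of settings. From MII to the 1-cell embryo these shares were 3.15%, 3.10%, 0.0624% and 0.299%, and from GV to the 1-cell embryo 1.28%, 1.03%, 0.0772% and 0.170%. Whether the member counts called lower differ from these shares was not tested. Fewer sites, fewer reads or a stricter adjustment lower the counts by construction, and the cause of the differences from the background was not tested. Of 62 values of named sites under these settings 45 kept their call, 17 lost it (12 with divided reads, 5 with Bonferroni adjustment) and 0 turned direction. Named rises and falls already had at least 50 reads in both libraries, so the coverage minimums left the reads of the sites kept unchanged. Calls were therefore at risk mainly with divided reads or Bonferroni adjustment, and a direction could turn with divided reads alone. Of the 84 other values 44 moved by less than the limits set for the type of value. With 1 library per stage, no value has a replicate error, and 37.3% of 1-cell member sites had fewer than 50 reads.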
